A study of Mus musculus with 12 samples.

Results

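The genes described here serve the response to low oxygen and glycolysis, the breakdown of glucose to pyruvate and lactate. They were 33 genes chosen by name: the glycolytic enzymes from hexokinase to lactate dehydrogenase, a glucose and a lactate transporter, the kinases Pdk1 and Pfkfb3, the oxygen-regulated factor Hif1a with its hydroxylases, and a set of genes known to rise in low oxygen. For each gene the probe set annotated to it with the highest mean log2 intensity over the 12 arrays was taken, which gave 30 of the 33 genes, out of 12393 genes measured. Gpi1 and Eno1 had no probe set annotated to them in the table used here, and the 3 probe sets of Bnip3l also carried the name of its pseudogene, so these 3 genes were left out.

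Cells sense oxygen through prolyl hydroxylases of the Egln family, which use it to mark the Hif1a protein for destruction by the Vhl ubiquitin ligase. When oxygen is short, Hif1a protein builds up, pairs with Arnt and binds a short DNA element near its target genes, among them most glycolytic enzymes, the glucose carrier Slc2a1 and the mitophagy receptor Bnip3. In the liver, oxygen falls along the sinusoid from the portal to the central side, and hepatocytes largely use their own forms of the glycolytic enzymes, such as glucokinase, aldolase B and the liver pyruvate kinase Pklr.

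BMEL cells, immortal lines isolated from the liver of mouse embryos of the cross CBA/J x C57Bl/6J at day 14 post coitum, can take on features of hepatocytes or of bile duct cells. The independently isolated lines 14B3 and 9A1 were each grown as aggregates for 5 days, in the basement membrane gel Matrigel, and in basal culture, whose length the labels do not give. Matrigel cultures were kept for 10 days, except 14B3 replicate 1, which is labelled as 5 days, so culture and time in culture cannot be told apart. Each of the 6 groups of line and culture had 2 arrays, which the series calls biological replicates without further detail, and the spread on which the p-values rest may therefore be technical alone. Each line stands for 1 isolate, and the labels give no oxygen level for any culture.

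Levels are given as log2 of the array intensity, on which 1 unit is a 2-fold difference, and they cannot be set against each other between genes because each probe set has its own brightness. The median intensity per array lay between 268 and 281, and the number of arrays limits the precision. A level below 8.16, the 90th percentile of 34 genes of retina, kidney, lung, pancreas and other foreign tissues, may be little more than background; Eno2, Slc16a3, Pfkfb3 and Adm averaged below it in all 3 cultures, so their changes may be understated. The 3′ minus 5′ signal of the Gapdh control, a sign of RNA integrity, ran from -0.10 to 0.11 over the arrays, and that of the Actb control from 0.17 to 0.39. Of 12 markers of liver epithelium 11 lay above that guide in aggregates, 12 in Matrigel and 9 in basal culture. Of 7 measured blood markers 1, of 9 endothelial markers 2 and of 8 stellate cell markers 1 did so, the same number in each culture, though single markers of each of these kinds differed in Matrigel, as given with the Matrigel values.

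Aggregates were first compared with basal culture. Of the 30 genes 21 were higher and 2 lower in aggregates at limma's adjusted p below 0.05 over all 12393 genes, where 22.9% of all genes were called higher and 23.4% lower. The median log2 change of the 30 genes was 0.59, against 0.10 for all genes, and 27 of the 30 changes were positive, against 61.9% of all genes. The list was chosen with earlier results of these data known, so these shares are a description and no test of the list. The changes that led were those of Ndrg1, Bnip3, Pfkp, Ero1a, Higd1a, Aldoc and Slc2a1, between 2.39- and 5.77-fold. Hif1a itself did not pass, and the muscle phosphofructokinase Pfkm and the stress gene Ddit4 were lower. Markers of dividing cells moved with the cultures as well: their summed log2 intensity ran from 10.39 to 11.29 in aggregates, from 12.70 to 13.07 in Matrigel and from 14.05 to 14.35 in basal culture. Their part in the changes below was not tested. In whole cultures, fewer cells with a transcript and less of it per cell cannot be told apart.

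**Figure D1:**
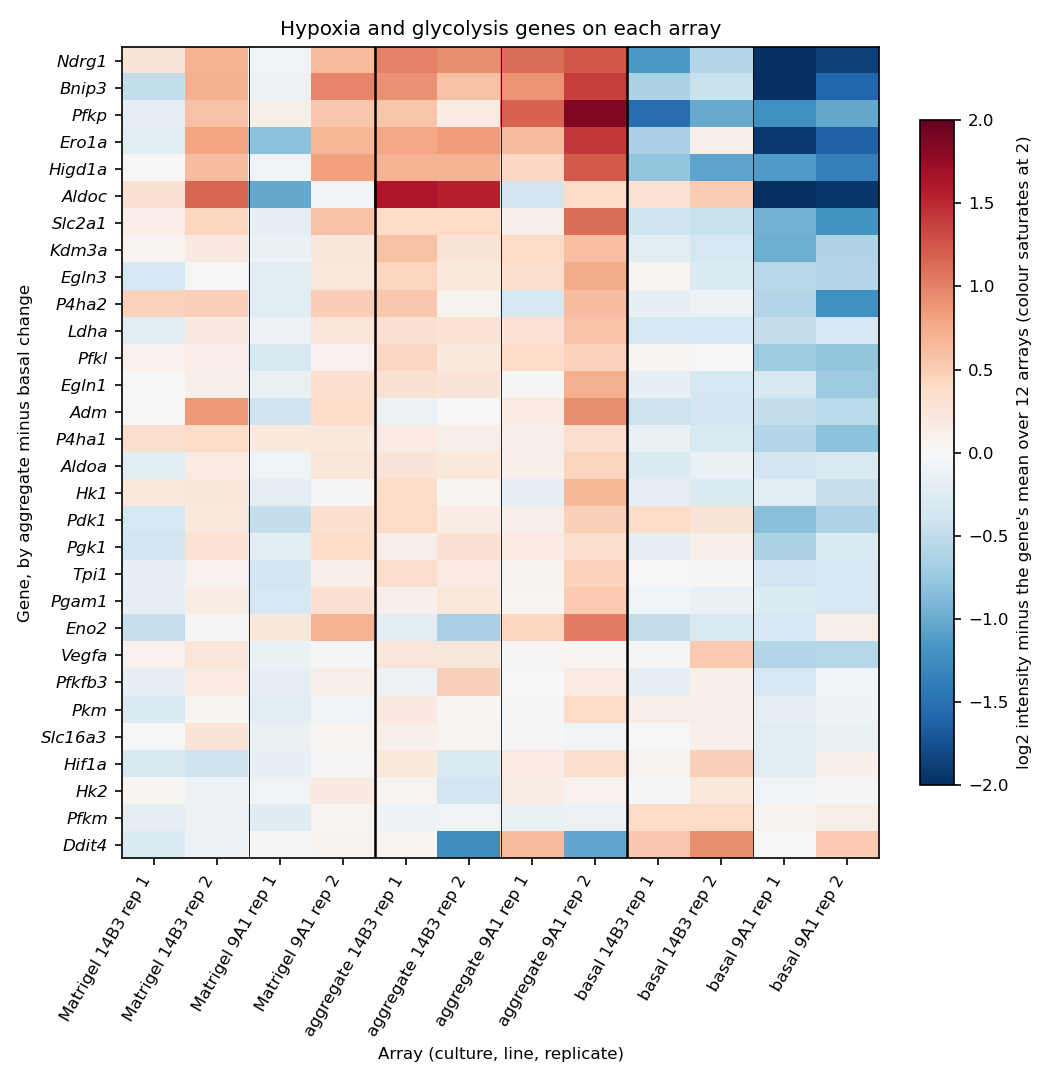
Log2 intensity of each of the 30 genes on each of the 12 arrays, minus the gene's mean over the arrays; rows are sorted by the aggregate minus basal change and columns are grouped by culture, then line. Most rows from Ndrg1 to Pgam1 are red in the aggregate columns and blue in the basal columns, most deeply in basal 9A1. Pfkm runs the other way, and Ddit4 is blue in aggregates on replicate 2 only.

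The 30 measured genes, whether they rose or not, were searched for the core of the hypoxia response element. The core is ACGTG or GCGTG on either strand, and the window was the 250 bases before the first transcription start listed in RefSeq (GRCm38.p6). These genes had been chosen by name, some for their known rise in low oxygen. A promoter was listed for 29 of the 30 genes, Ndrg1 being the exception, and 23 of the 29, or 79.3%, held at least 1 match. The share was 38.6% of all 27025 genes with a promoter and 51.4% of the 9887 among them measured on the arrays, whose promoters had a median G+C content of 58.4%, against 64.0% for the members. Of the 20 members with a promoter that were higher in aggregates 17 held a match, as did 6 of the other 9. The E-box CACGTG, which overlaps the motif on both strands, occurred in 4 members and in 6.05% of all genes. The windows of the 6 most changed members with a match are shown to let the motif be seen next to the values below, 5′ to 3′ on the gene's strand, with the matched bases in capitals (CACGC and CACGT are the motif on the other strand). They are chr7:138909507-138909756 (minus strand) for Bnip3, chr13:6648772-6649021 (minus strand) for Pfkp, chr14:45318573-45318822 (minus strand) for Ero1a, chr9:121857797-121858046 (minus strand) for Higd1a, chr11:78322823-78323072 (plus strand) for Aldoc and chr4:119108495-119108744 (plus strand) for Slc2a1.
Bnip3: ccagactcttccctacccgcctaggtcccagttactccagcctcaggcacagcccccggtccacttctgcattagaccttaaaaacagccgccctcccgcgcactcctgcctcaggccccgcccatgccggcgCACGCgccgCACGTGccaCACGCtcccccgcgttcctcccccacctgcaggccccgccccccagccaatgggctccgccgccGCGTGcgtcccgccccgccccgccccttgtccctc
Pfkp: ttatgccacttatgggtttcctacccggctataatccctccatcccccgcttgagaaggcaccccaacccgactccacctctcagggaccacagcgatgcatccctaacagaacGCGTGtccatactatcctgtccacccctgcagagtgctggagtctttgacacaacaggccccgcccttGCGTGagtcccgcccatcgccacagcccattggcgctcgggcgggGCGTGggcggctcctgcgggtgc
Ero1a: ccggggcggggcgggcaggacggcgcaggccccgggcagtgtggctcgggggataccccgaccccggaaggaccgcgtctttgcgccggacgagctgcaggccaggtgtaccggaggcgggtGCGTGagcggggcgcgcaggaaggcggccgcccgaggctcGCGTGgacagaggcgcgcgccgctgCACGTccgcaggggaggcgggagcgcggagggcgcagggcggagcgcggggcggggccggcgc
Higd1a: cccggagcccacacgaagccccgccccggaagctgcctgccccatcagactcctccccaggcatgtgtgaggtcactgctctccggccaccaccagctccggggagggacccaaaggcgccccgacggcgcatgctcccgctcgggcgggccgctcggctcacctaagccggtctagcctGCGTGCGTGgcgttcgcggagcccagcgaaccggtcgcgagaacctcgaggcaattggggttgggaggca
Aldoc: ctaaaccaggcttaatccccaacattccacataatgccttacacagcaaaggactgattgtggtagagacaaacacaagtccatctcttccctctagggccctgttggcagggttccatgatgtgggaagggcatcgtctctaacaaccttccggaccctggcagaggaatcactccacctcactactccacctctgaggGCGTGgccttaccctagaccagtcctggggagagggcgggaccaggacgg
Slc2a1: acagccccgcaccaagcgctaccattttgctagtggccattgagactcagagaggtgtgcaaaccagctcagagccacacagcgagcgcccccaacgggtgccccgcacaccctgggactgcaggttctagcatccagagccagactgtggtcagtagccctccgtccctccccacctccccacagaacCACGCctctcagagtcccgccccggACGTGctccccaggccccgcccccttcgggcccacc
Bnip3 held 5 matches, 2 of them the strands of 1 E-box, and its nearest lay 35 bases before the start. The nearest match lay 23 bases before the start in Pfkp, 36 in Slc2a1, 50 in Aldoc, 63 in Ero1a and 66 in Higd1a. A match is a run of letters and no evidence of binding.

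Of the 13 measured glycolytic enzymes 9 were higher and 1 lower in aggregates. Hexokinases trap glucose in the cell as its phosphate. Hk1 (probe set 1437974_a_at) read 11.48 and 11.15 in 14B3 aggregates and 10.91 and 11.78 in 9A1 aggregates, against 10.93 and 10.82 in 14B3 basal cultures and 10.89 and 10.65 in 9A1 basal cultures. The groups overlapped, since the lowest aggregate array lay below the highest basal one, and the change was 0.51 ± 0.17 (SE) with limma's adjusted p of 0.0262. That call was lost at 0.0506 to 0.0971 without aggregate 14B3 replicate 1, aggregate 9A1 replicate 2, basal 14B3 replicate 1, basal 14B3 replicate 2 or basal 9A1 replicate 2. Hk2 (probe set 1422612_at), the insulin-regulated form, read 10.54 and 10.12 in 14B3 aggregates and 10.65 and 10.57 in 9A1 aggregates, against 10.47 and 10.70 in 14B3 basal cultures and 10.43 and 10.45 in 9A1 basal cultures, and its change of -0.04 ± 0.12 (SE) did not pass (limma, adjusted p = 0.787).

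Phosphofructokinase commits sugar to glycolysis. Its platelet and liver forms rose in aggregates and its muscle form fell. The platelet form Pfkp (probe set 1416069_at) read 10.20 and 9.81 in 14B3 aggregates and 10.82 and 11.49 in 9A1 aggregates, against 8.12 and 8.65 in 14B3 basal cultures and 8.41 and 8.63 in 9A1 basal cultures. Every aggregate array lay above every basal array, the change was 2.13 ± 0.21 (SE), 4.38-fold, and limma's adjusted p was 3.85e-06. The liver form Pfkl (probe set 1439148_a_at) read 12.65 and 12.42 in 14B3 aggregates and 12.62 and 12.69 in 9A1 aggregates, against 12.28 and 12.24 in 14B3 basal cultures and 11.50 and 11.44 in 9A1 basal cultures. It rose by 0.73 ± 0.11 (SE) without overlap (limma, adjusted p = 0.000129), with the basal 9A1 arrays the lowest. The muscle form Pfkm (probe set 1416780_at) read 9.82 and 9.84 in 14B3 aggregates and 9.79 and 9.80 in 9A1 aggregates, against 10.30 and 10.28 in 14B3 basal cultures and 10.00 and 10.04 in 9A1 basal cultures. Here all 4 aggregate arrays lay below the basal ones, and the change was -0.34 ± 0.09 (SE) with limma's adjusted p of 0.00921.

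Aldolases split the phosphorylated sugar. The muscle and widespread form Aldoa (probe set 1416921_x_at) read 13.67 and 13.62 in 14B3 aggregates and 13.51 and 13.86 in 9A1 aggregates, against 13.14 and 13.27 in 14B3 basal cultures and 13.02 and 13.10 in 9A1 basal cultures. The cultures did not overlap and the change was 0.53 ± 0.12 (SE) (limma, adjusted p = 0.00349). The brain form Aldoc (probe set 1451461_a_at) read 11.38 and 11.31 in 14B3 aggregates and 9.38 and 10.13 in 9A1 aggregates, against 10.04 and 10.27 in 14B3 basal cultures and 7.37 and 7.81 in 9A1 basal cultures. It was higher in aggregates in each line, but the 14B3 basal arrays lay at the level of the 9A1 aggregates, so the cultures overlapped. The 9A1 basal arrays lay below the background guide of 8.16, so the change may be understated. It averaged 1.68 ± 0.24 (SE), 3.20-fold, with limma's adjusted p of 0.00011.

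Of the later steps of the pathway, Tpi1, Pgk1 and Pgam1 had smaller changes than Ldha. Triose phosphate isomerase Tpi1 averaged 13.21 ± 0.18 in aggregates and 12.77 ± 0.21 in basal culture (SD, n = 4 each), phosphoglycerate kinase Pgk1 averaged 13.83 ± 0.12 in aggregates and 13.36 ± 0.31 in basal culture (SD, n = 4 each), and phosphoglycerate mutase Pgam1 averaged 12.39 ± 0.21 in aggregates and 11.96 ± 0.12 in basal culture (SD, n = 4 each). Their changes were 0.44 ± 0.13 (SE), 0.47 ± 0.17 (SE) and 0.43 ± 0.15 (SE), with limma's adjusted p of 0.0163, 0.0441 and 0.0343. All 3 calls depend on single arrays. The adjusted p of Tpi1 was 0.0533 to 0.0751 without aggregate 14B3 replicate 1 or aggregate 9A1 replicate 2, that of Pgk1 0.0503 to 0.158 without any 1 of 7 arrays, all except Matrigel 14B3 replicate 1, Matrigel 14B3 replicate 2, Matrigel 9A1 replicate 1, Matrigel 9A1 replicate 2 and basal 9A1 replicate 2, and that of Pgam1 0.0538 to 0.143 without any 1 of 7 arrays, all except aggregate 9A1 replicate 1, Matrigel 14B3 replicate 1, Matrigel 14B3 replicate 2, Matrigel 9A1 replicate 1 and Matrigel 9A1 replicate 2. With quantile normalization it was 0.0941 for Tpi1 and 0.161 for Pgam1, with the mean of its probe sets 0.0982 for Tpi1, and with the additive fit 0.0508 for Pgk1. Lactate dehydrogenase Ldha, which turns pyruvate into lactate, averaged 13.78 ± 0.14 in aggregates and 13.05 ± 0.07 in basal culture (SD, n = 4 each), with no overlap between the cultures, a change of 0.73 ± 0.12 (SE) and limma's adjusted p of 0.000364.

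The neuronal enolase Eno2 (probe set 1418829_a_at), at a level that may be near background, read 6.74 and 6.30 in 14B3 aggregates and 7.38 and 7.97 in 9A1 aggregates, against 6.47 and 6.66 in 14B3 basal cultures and 6.61 and 7.06 in 9A1 basal cultures. Its 9A1 aggregates were the highest arrays and its 14B3 aggregates lay within or below the basal range. The change averaged 0.40 ± 0.18 (SE) with limma's adjusted p of 0.0977, which became 0.0236 with the replicate number as a block and 0.034 without aggregate 9A1 replicate 1. Pyruvate kinase Pkm, the form of most tissues other than liver, averaged 13.44 ± 0.19 in aggregates and 13.29 ± 0.16 in basal culture (SD, n = 4 each), and its change of 0.15 ± 0.12 (SE) did not pass (limma, adjusted p = 0.322, 95% confidence interval -0.11 to 0.41).

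**Figure D2:**
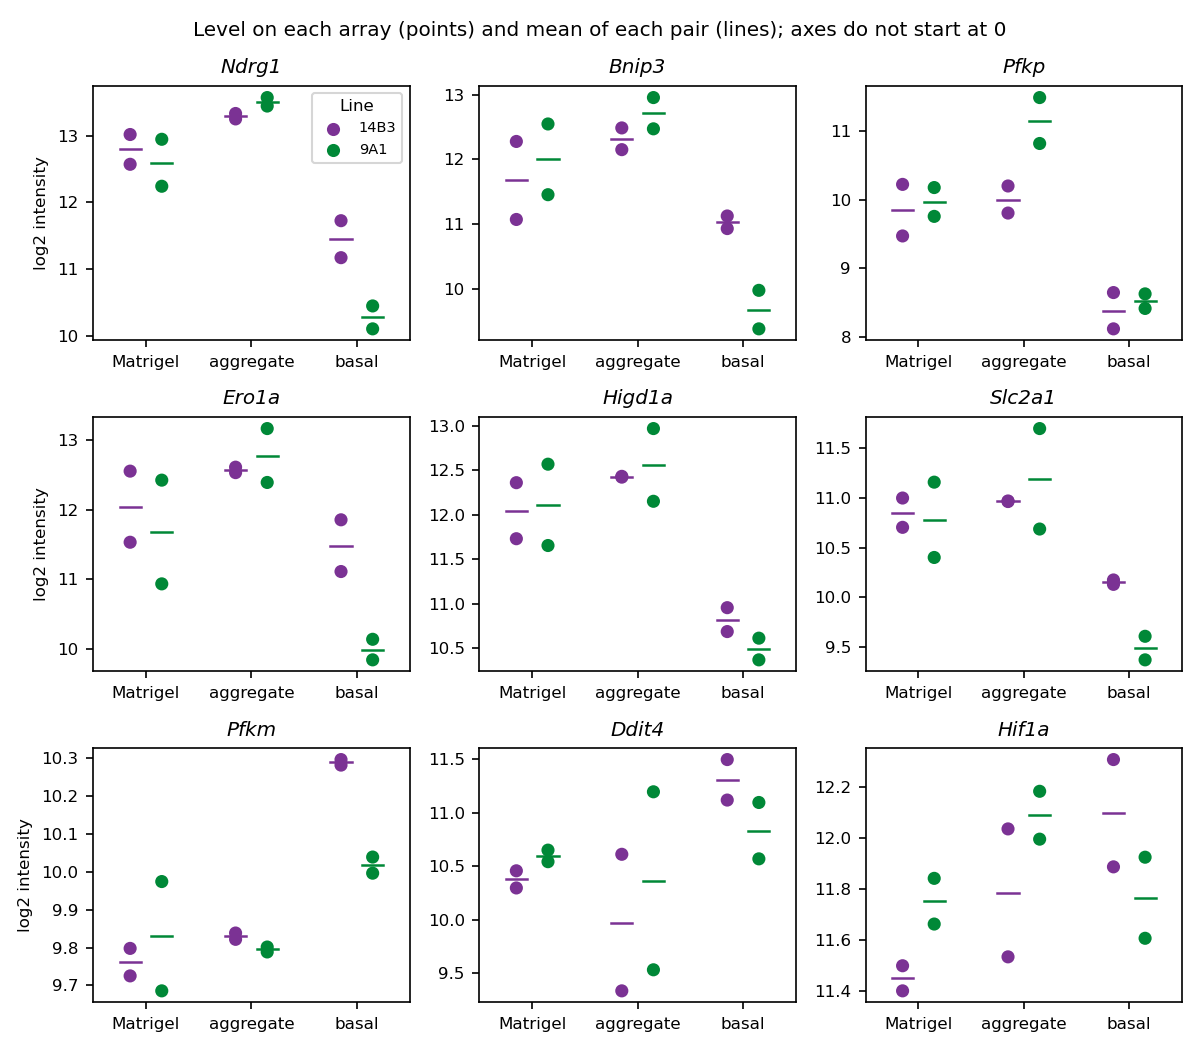
Log2 intensity of 9 genes on each array, by culture (Matrigel, aggregate, basal) and line, with 14B3 in purple left of 9A1 in green; points are arrays, lines the mean of the pair, and each panel has its own axis, which does not start at 0. Ndrg1, Bnip3, Pfkp, Ero1a, Higd1a and Slc2a1 have their lowest arrays in basal culture, Pfkm has its highest there, and Hif1a shows no such split.

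Both measured genes of sugar and lactate transport were read on the same arrays. The glucose carrier Slc2a1 (probe set 1434773_a_at) read 10.96 and 10.97 in 14B3 aggregates and 10.69 and 11.70 in 9A1 aggregates, against 10.18 and 10.13 in 14B3 basal cultures and 9.61 and 9.37 in 9A1 basal cultures. No basal array reached an aggregate array, and the change was 1.26 ± 0.21 (SE), 2.39-fold, with limma's adjusted p of 0.000332. The lactate exporter Slc16a3, at a level that may be near background, averaged 7.19 ± 0.07 in aggregates and 7.10 ± 0.14 in basal culture (SD, n = 4 each), with a change of 0.08 ± 0.10 (SE) that did not pass (limma, adjusted p = 0.502).

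The kinases that steer glycolytic flux gave 1 call of 2. Pdk1 blocks pyruvate dehydrogenase and so keeps pyruvate out of the mitochondrion, and it averaged 10.72 ± 0.18 in aggregates and 10.23 ± 0.61 in basal culture (SD, n = 4 each). Its change was 0.49 ± 0.18 (SE) with limma's adjusted p of 0.0413, which was 0.0523 to 0.14 without any 1 of 7 arrays, all except aggregate 9A1 replicate 1, Matrigel 14B3 replicate 1, Matrigel 14B3 replicate 2, Matrigel 9A1 replicate 1 and Matrigel 9A1 replicate 2. It was 0.0806 with quantile normalization, 0.152 with the mean of its probe sets and 0.114 with the additive fit. Pfkfb3 makes the sugar bisphosphate that activates phosphofructokinase, and it averaged 6.92 ± 0.26 in aggregates and 6.66 ± 0.19 in basal culture (SD, n = 4 each). Its change of 0.26 ± 0.15 (SE) did not pass (limma, adjusted p = 0.193), but it did with the replicate block (0.0285), with the mean of its probe sets (0.00853) and without aggregate 14B3 replicate 1 (0.0383).

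Of the oxygen-sensing genes the hydroxylases rose and the factor did not pass. Hif1a (probe set 1427418_a_at) read 12.03 and 11.53 in 14B3 aggregates and 11.99 and 12.18 in 9A1 aggregates, against 11.89 and 12.31 in 14B3 basal cultures and 11.61 and 11.92 in 9A1 basal cultures. The arrays of both cultures covered much the same range, and the change was 0.01 ± 0.14 (SE) with a 95% confidence interval of -0.30 to 0.31 (limma, adjusted p = 0.977). Oxygen acts on this factor mainly through its protein, which was not measured. Egln1 (probe set 1423785_at), the main hydroxylase of Hif1a, read 10.80 and 10.74 in 14B3 aggregates and 10.52 and 11.20 in 9A1 aggregates, against 10.32 and 10.15 in 14B3 basal cultures and 10.18 and 9.76 in 9A1 basal cultures. The cultures did not overlap and the change was 0.71 ± 0.16 (SE) (limma, adjusted p = 0.00287). Its second probe set (1451110_at) was at 0.23 without a call (limma, adjusted p = 0.329 over all probe sets). Egln3 (probe set 1418649_at), a hydroxylase that is itself known to rise in low oxygen, read 11.81 and 11.60 in 14B3 aggregates and 11.73 and 12.13 in 9A1 aggregates, against 11.44 and 11.09 in 14B3 basal cultures and 10.82 and 10.80 in 9A1 basal cultures. It rose by 0.78 ± 0.14 (SE) (limma, adjusted p = 0.0006), and its lowest aggregate array still lay above its highest basal array.

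Both measured mitochondrial genes rose several-fold. Bnip3 (probe set 1422470_at) marks mitochondria for removal by autophagy, and it read 12.49 and 12.15 in 14B3 aggregates and 12.47 and 12.96 in 9A1 aggregates, against 10.93 and 11.13 in 14B3 basal cultures and 9.38 and 9.98 in 9A1 basal cultures. All aggregate arrays lay above all basal arrays, the change was 2.16 ± 0.28 (SE), 4.47-fold, and limma's adjusted p was 4.64e-05. Higd1a (probe set 1416480_a_at), a small inner membrane protein bound to the respiratory chain, read 12.43 and 12.42 in 14B3 aggregates and 12.15 and 12.97 in 9A1 aggregates, against 10.95 and 10.69 in 14B3 basal cultures and 10.61 and 10.37 in 9A1 basal cultures. The groups were well apart, the change was 1.84 ± 0.22 (SE), 3.57-fold, and limma's adjusted p was 2.73e-05.

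Of the 5 genes of secreted factors and protein folding 4 rose. Ero1a (probe set 1449324_at) oxidises protein disulfide isomerase in the endoplasmic reticulum, and it read 12.53 and 12.61 in 14B3 aggregates and 12.39 and 13.16 in 9A1 aggregates, against 11.11 and 11.85 in 14B3 basal cultures and 9.84 and 10.14 in 9A1 basal cultures. Its change was 1.94 ± 0.32 (SE), 3.83-fold, with no overlap and limma's adjusted p of 0.000323; the 14B3 basal arrays lay well above the 9A1 ones. P4ha1 (probe set 1452094_at), a catalytic subunit of collagen prolyl hydroxylase, read 9.79 and 9.74 in 14B3 aggregates and 9.73 and 9.95 in 9A1 aggregates, against 9.49 and 9.31 in 14B3 basal cultures and 9.03 and 8.80 in 9A1 basal cultures. It rose by 0.65 ± 0.10 (SE) without overlap (limma, adjusted p = 0.00015). The other catalytic subunit gene, P4ha2 (probe set 1417149_at), read 9.61 and 9.13 in 14B3 aggregates and 8.71 and 9.68 in 9A1 aggregates, against 8.90 and 8.95 in 14B3 basal cultures and 8.47 and 7.84 in 9A1 basal cultures. The arrays overlapped, the change was 0.74 ± 0.23 (SE), and limma's adjusted p of 0.0175 became 0.0674 to 0.0739 without aggregate 14B3 replicate 1, aggregate 9A1 replicate 2 or basal 9A1 replicate 2.

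The vasodilator peptide gene Adm, at a level that may be near background, read 6.65 to 7.68 in aggregates, above the 6.21 to 6.38 of basal culture. Its change was 0.69 ± 0.22 (SE) with limma's adjusted p of 0.021, and the call was lost at 0.0527 to 0.0917 without aggregate 14B3 replicate 2, aggregate 9A1 replicate 2, basal 14B3 replicate 1 or basal 9A1 replicate 2. The angiogenic factor Vegfa (probe set 1451959_a_at) read 10.62 and 10.60 in 14B3 aggregates and 10.39 and 10.42 in 9A1 aggregates, against 10.34 and 10.89 in 14B3 basal cultures and 9.78 and 9.80 in 9A1 basal cultures. The 9A1 basal arrays were the lowest and 14B3 basal replicate 2 the highest of these arrays. The change of 0.31 ± 0.12 (SE) did not pass (limma, adjusted p = 0.052), but it did with the replicate block (0.0268), with the mean of its probe sets (0.023) and without basal 14B3 replicate 2 (0.00473).

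The stress genes held the widest range of changes among the 30 genes. Ndrg1 (probe set 1420760_s_at), a cytoplasmic protein induced by low oxygen and other stresses, read 13.33 and 13.25 in 14B3 aggregates and 13.44 and 13.57 in 9A1 aggregates, against 11.18 and 11.73 in 14B3 basal cultures and 10.11 and 10.45 in 9A1 basal cultures. The aggregate arrays lay close together and far above the basal ones, among which 14B3 was higher than 9A1. The change was 2.53 ± 0.18 (SE), 5.77-fold, with limma's adjusted p of 2.58e-07. Kdm3a (probe set 1426810_at), a histone demethylase, read 10.78 and 10.46 in 14B3 aggregates and 10.59 and 10.79 in 9A1 aggregates, against 9.97 and 9.84 in 14B3 basal cultures and 9.22 and 9.60 in 9A1 basal cultures. It rose by 1.00 ± 0.13 (SE) without overlap (limma, adjusted p = 4.08e-05).

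Ddit4 (probe set 1428306_at), which restrains the mTOR growth pathway and is a known target of Hif1a, read 10.61 and 9.33 in 14B3 aggregates and 11.20 and 9.53 in 9A1 aggregates, against 11.12 and 11.50 in 14B3 basal cultures and 10.57 and 11.10 in 9A1 basal cultures. Replicate 2 was far lower than replicate 1 in the aggregates of both lines, and the replicate 1 aggregates lay within the basal range. The change averaged -0.90 ± 0.33 (SE) with limma's adjusted p of 0.044, but it was 0.06 from the replicate 1 arrays and -1.87 from the replicate 2 arrays. The call was lost at 0.0532 to 0.192 without any 1 of 9 arrays, all except aggregate 14B3 replicate 1, aggregate 9A1 replicate 1 and basal 9A1 replicate 1. With a trended robust prior its adjusted p was 0.0657.

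In Matrigel, 13 of the 30 genes were higher and 1 lower than in basal culture, where limma called 14.1% of all genes higher and 14.3% lower. The median change was 0.35, against -0.04 for all genes, and each of the 13 was also called higher in aggregates. The count was 8 without Matrigel 9A1 replicate 2 and 8 without basal 14B3 replicate 1. Ndrg1 read 12.57 and 13.02 in 14B3 Matrigel cultures and 12.24 and 12.94 in 9A1 Matrigel cultures, against 10.11 to 11.73 in basal culture. The cultures did not overlap and the change was 1.83 ± 0.18 (SE), 3.54-fold, with limma's adjusted p of 1.42e-05. Bnip3 read 11.07 and 12.28 in 14B3 Matrigel cultures and 11.45 and 12.55 in 9A1 Matrigel cultures, against 9.38 to 11.13 in basal culture. Replicate 1 of 14B3, the array labelled as 5 days, lay within the basal range, and the change averaged 1.48 ± 0.28 (SE) (limma, adjusted p = 0.00192).

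Markers of other cell types were not level across these cultures. The summed log2 intensity of the 8 stellate cell markers ran from 10.26 to 11.59 in Matrigel and from 10.22 to 10.41 in basal culture. Among them the smooth muscle actin gene Acta2 read 11.17 and 10.62 in 9A1 Matrigel cultures, against 9.08 and 8.74 in 9A1 basal cultures, and 8.82 and 8.84 in 14B3 Matrigel cultures, against 8.63 and 8.86 in 14B3 basal cultures. The sum of the 9 endothelial markers ran from 10.26 to 10.95 in Matrigel and from 10.45 to 10.79 in basal culture. The endothelial cadherin Cdh5 read 8.47 and 8.87 in 14B3 Matrigel cultures, against 7.27 and 7.98 in 14B3 basal cultures, and Vwf, below the background guide throughout, read 6.03 and 6.47 against 5.48 and 5.61. The sum of the 7 blood markers ran from 9.91 to 10.33 in Matrigel and from 9.80 to 9.99 in basal culture. The part of such cells in the Matrigel changes was not tested.

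Among the glycolytic enzymes 4 of 13 were higher and 1 lower in Matrigel. Pfkp read 9.47 and 10.23 in 14B3 Matrigel cultures and 9.76 and 10.18 in 9A1 Matrigel cultures, against 8.12 to 8.65 in basal culture, a change of 1.46 ± 0.21 (SE) without overlap (limma, adjusted p = 0.000253). Pfkm read 9.73 and 9.80 in 14B3 Matrigel cultures and 9.69 and 9.97 in 9A1 Matrigel cultures, against 10.00 to 10.30 in basal culture, a change of -0.36 ± 0.09 (SE), again with every Matrigel array below the basal ones (limma, adjusted p = 0.0122). Aldoc read 10.06 and 10.90 in 14B3 Matrigel cultures and 8.74 and 9.71 in 9A1 Matrigel cultures, against 7.37 to 10.27 in basal culture. The 14B3 basal arrays fell among the Matrigel values, and the change was 0.98 ± 0.24 (SE) (limma, adjusted p = 0.00988). Pfkl and Ldha were at 0.36 ± 0.11 (SE) and 0.39 ± 0.12 (SE), with limma's adjusted p of 0.0267 and 0.0335. Both calls depend on single arrays, the adjusted p of Pfkl being 0.0507 to 0.0957 without any 1 of 7 arrays, all except aggregate 14B3 replicate 1, aggregate 14B3 replicate 2, aggregate 9A1 replicate 1, aggregate 9A1 replicate 2 and Matrigel 9A1 replicate 1, and that of Ldha 0.0531 to 0.131 without Matrigel 14B3 replicate 2, Matrigel 9A1 replicate 2, basal 14B3 replicate 1, basal 14B3 replicate 2, basal 9A1 replicate 1 or basal 9A1 replicate 2. With each array centred on its median they were 0.0519 and 0.0548, and Pfkl was at 0.125 with the additive fit.

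The other 8 enzymes had no call. Aldoa read 13.18 and 13.57 in 14B3 Matrigel cultures and 13.32 and 13.65 in 9A1 Matrigel cultures, and its change of 0.30 ± 0.12 (SE) had limma's adjusted p of 0.103, which was 0.0377 with the replicate block and 0.0416 without Matrigel 14B3 replicate 1. Hk1 read 11.32 and 11.33 in 14B3 Matrigel cultures and 10.91 and 11.13 in 9A1 Matrigel cultures, a change of 0.35 ± 0.17 (SE) (limma, adjusted p = 0.156, but 0.0399 without aggregate 9A1 replicate 1 or aggregate 9A1 replicate 2). Hk2 read 10.52 and 10.38 in 14B3 Matrigel cultures and 10.42 and 10.67 in 9A1 Matrigel cultures, a change of -0.01, and Eno2 read 6.49 and 6.92 in 14B3 Matrigel cultures and 7.17 and 7.65 in 9A1 Matrigel cultures, a change of 0.36 (limma, adjusted p = 0.965 and 0.188). The remaining changes were 0.25 for Pgk1, 0.19 for Pgam1, 0.09 for Tpi1 and -0.12 for Pkm.

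Slc2a1 read 10.70 and 11.00 in 14B3 Matrigel cultures and 10.40 and 11.16 in 9A1 Matrigel cultures, against 9.37 to 10.18 in basal culture. All Matrigel arrays were higher, by 0.99 ± 0.21 (SE) on average, 1.99-fold (limma, adjusted p = 0.00375). Higd1a read 11.73 and 12.36 in 14B3 Matrigel cultures and 11.65 and 12.57 in 9A1 Matrigel cultures, against 10.37 to 10.95 in basal culture, a change of 1.42 ± 0.22 (SE) with limma's adjusted p of 0.000557 and no overlap. Ero1a read 11.53 and 12.55 in 14B3 Matrigel cultures and 10.93 and 12.42 in 9A1 Matrigel cultures, against 9.84 to 11.85 in basal culture. The 9A1 replicate 1 and 14B3 replicate 1 arrays lay below the highest basal array, and the change of 1.12 ± 0.32 (SE) had limma's adjusted p of 0.0209, which was 0.069 to 0.0912 without Matrigel 14B3 replicate 2, Matrigel 9A1 replicate 2, basal 14B3 replicate 1 or basal 9A1 replicate 1. P4ha1 read 9.98 and 9.99 in 14B3 Matrigel cultures and 9.82 and 9.83 in 9A1 Matrigel cultures, with the arrays tightly grouped and above basal culture by 0.74 ± 0.10 (SE) (limma, adjusted p = 0.000143).

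P4ha2 read 9.52 and 9.55 in 14B3 Matrigel cultures and 8.86 and 9.55 in 9A1 Matrigel cultures, a change of 0.83 ± 0.23 (SE) with limma's adjusted p of 0.0161, which was 0.0506 to 0.0704 without Matrigel 9A1 replicate 2, basal 14B3 replicate 1 or basal 9A1 replicate 2. Adm averaged 6.97 ± 0.54 in Matrigel and 6.31 ± 0.07 in basal culture (SD, n = 4 each), a change of 0.66 ± 0.22 (SE) with limma's adjusted p of 0.0405, lost at 0.0541 to 0.158 without any 1 of 8 arrays, all except aggregate 9A1 replicate 1, aggregate 9A1 replicate 2, Matrigel 14B3 replicate 1 and Matrigel 9A1 replicate 1, at 0.0543 with median centring and at 0.0745 with the additive fit. Kdm3a read 10.25 and 10.38 in 14B3 Matrigel cultures and 10.06 and 10.42 in 9A1 Matrigel cultures, above all basal arrays by 0.62 ± 0.13 (SE) on average (limma, adjusted p = 0.00318). The hydroxylase genes did not pass: Egln1 read 10.50 and 10.59 in 14B3 Matrigel cultures and 10.35 and 10.81 in 9A1 Matrigel cultures, all above basal culture, with a change of 0.46 ± 0.16 (SE) and limma's adjusted p of 0.0525. That p was 0.0409 with the replicate block and 0.0235 to 0.0413 without aggregate 9A1 replicate 1, aggregate 9A1 replicate 2, Matrigel 9A1 replicate 1 or basal 9A1 replicate 1. Egln3 read 11.03 and 11.37 in 14B3 Matrigel cultures and 11.17 and 11.59 in 9A1 Matrigel cultures, a change of 0.25 ± 0.14 (SE) (limma, adjusted p = 0.236, and 0.016 with the mean of its probe sets). Its second probe set (1418648_at) was called higher, at 0.79 (limma, adjusted p = 0.00532 over all probe sets).

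Hif1a read 11.50 and 11.40 in 14B3 Matrigel cultures and 11.66 and 11.84 in 9A1 Matrigel cultures, against 11.61 to 12.31 in basal culture. The 14B3 Matrigel arrays were the lowest of these, and the change of -0.33 ± 0.14 (SE) had a 95% confidence interval of -0.64 to -0.02 and limma's adjusted p of 0.108. Another of its probe sets (1448183_a_at) was called lower, at -0.57 (limma, adjusted p = 0.00991 over all probe sets). Ddit4 read 10.30 and 10.46 in 14B3 Matrigel cultures and 10.54 and 10.65 in 9A1 Matrigel cultures, close together and near the lowest basal array, a change of -0.58 ± 0.33 (SE) (limma, adjusted p = 0.25). Vegfa read 10.46 and 10.61 in 14B3 Matrigel cultures and 10.25 and 10.33 in 9A1 Matrigel cultures, a change of 0.21 ± 0.12 (SE) (limma, adjusted p = 0.241, but 0.031 without basal 14B3 replicate 2). Pdk1, Pfkfb3 and Slc16a3 were at 0.13, 0.11 and 0.11 without a call. With the mean of its probe sets Pfkfb3 was called higher, at 0.40 (limma, adjusted p = 0.00829), and its second probe set (1416432_at) was at 0.69 (limma, adjusted p = 0.0103 over all probe sets); both lie at levels that may be background.

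**Figure D3:**
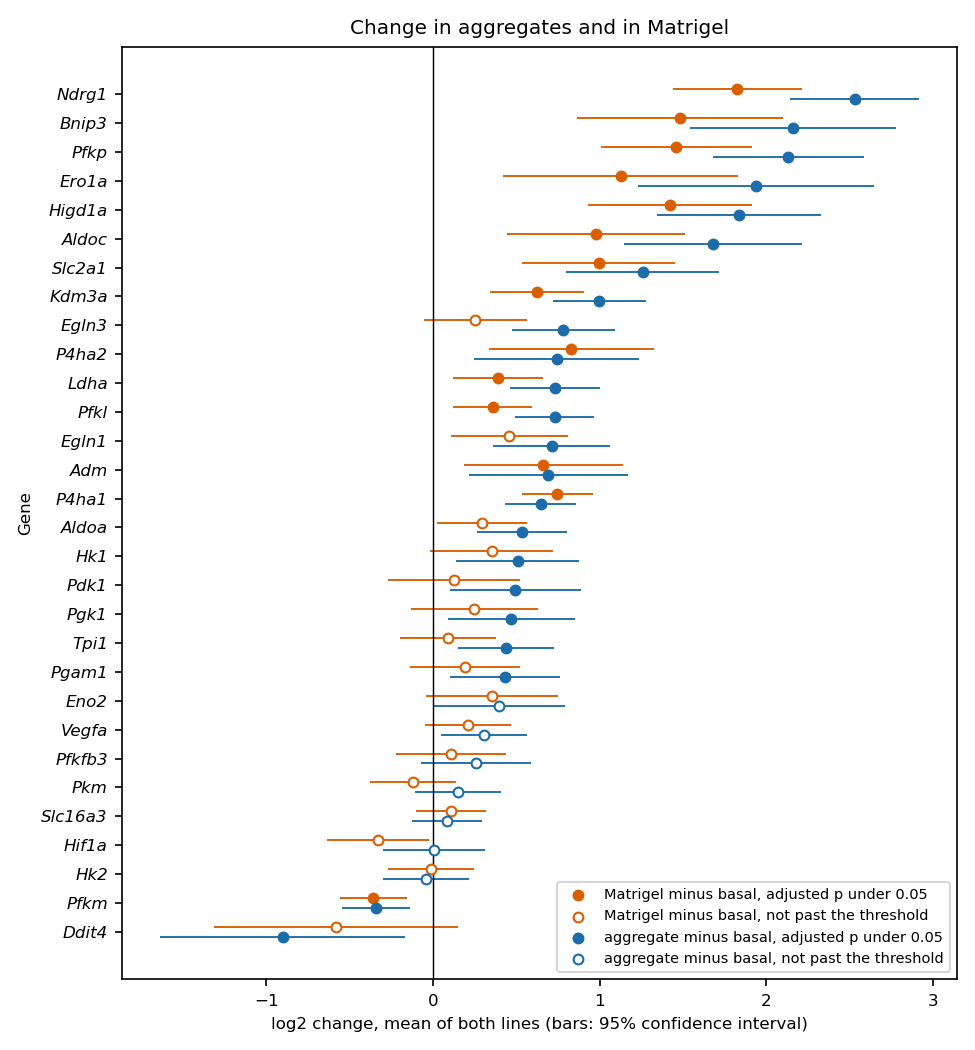
Log2 change of each of the 30 genes, mean of both lines, for Matrigel minus basal (orange) and aggregate minus basal (blue), with 95% confidence intervals; filled points passed limma's adjusted p of 0.05. The aggregate point lies to the right of the Matrigel point for most genes, and both comparisons use the same 4 basal arrays.

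Matrigel and aggregate culture were then compared directly, since the aggregate and Matrigel changes above share their basal arrays. The mean levels ran in the order basal, Matrigel, aggregate for 22 of the 30 genes. The share of all genes in that order was not counted. Of all genes 61.9% were higher in aggregates than in basal culture, 41.5% were higher in Matrigel than in basal culture, and 63.4% were lower in Matrigel than in aggregates. With limma, 0 genes were higher in Matrigel, also 0 at an unadjusted p below 0.05, and 5 were lower, where 13.9% of all genes were called higher and 12.7% lower. The number lower was 0 without Matrigel 14B3 replicate 1 and 12 without Matrigel 9A1 replicate 2, and 10 with the replicate block, so these calls depend on single arrays. Ndrg1 differed by -0.70 ± 0.18 (SE) (limma, adjusted p = 0.0116), with every Matrigel array below the aggregate range of 13.25 to 13.57, and its adjusted p was 0.0506 without Matrigel 14B3 replicate 1 and 0.0607 with the additive fit. Pfkp differed by -0.67 ± 0.21 (SE) (limma, adjusted p = 0.0323). The difference was -0.16 in 14B3 and -1.19 in 9A1, and the adjusted p was 0.0889 to 0.128 without aggregate 14B3 replicate 1, aggregate 9A1 replicate 2, Matrigel 14B3 replicate 1 or Matrigel 9A1 replicate 1, 0.0606 with array weights and 0.0682 with the additive fit.

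Pfkl read 12.31 and 12.35 in 14B3 Matrigel cultures and 11.91 and 12.32 in 9A1 Matrigel cultures, against 12.42 to 12.69 in aggregates. No array overlapped, and the difference of -0.37 ± 0.11 (SE) had limma's adjusted p of 0.0255, which was 0.0686 to 0.0976 without aggregate 14B3 replicate 1, aggregate 9A1 replicate 2, Matrigel 14B3 replicate 1 or Matrigel 9A1 replicate 1, 0.111 with quantile normalization and 0.103 with the additive fit. Egln3 differed by -0.53 ± 0.14 (SE) (limma, adjusted p = 0.0163), with the Matrigel arrays at 11.03 to 11.59 and the aggregates at 11.60 to 12.13. Its adjusted p was 0.0668 to 0.0714 without aggregate 9A1 replicate 2, Matrigel 14B3 replicate 1 or Matrigel 9A1 replicate 1. Kdm3a differed by -0.38 ± 0.13 (SE) (limma, adjusted p = 0.0491), and this call was lost at 0.0578 to 0.182 without any 1 of 8 arrays, all except aggregate 14B3 replicate 2, Matrigel 9A1 replicate 2, basal 9A1 replicate 1 and basal 9A1 replicate 2. It was also lost with quantile normalization (0.0686), array weights (0.0887) and the additive fit (0.0692).

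With the replicate block, 5 further genes were lower in Matrigel: Aldoc (-0.70, adjusted p 0.0542 without and 0.00362 with the block), Tpi1 (-0.35, 0.07 and 0.0251), Ldha (-0.34, 0.0622 and 0.0218), Bnip3 (-0.68, 0.0962 and 0.0254) and Ero1a (-0.81, 0.0829 and 0.00738), all from limma. Without the block, single arrays also brought genes past the threshold. The adjusted p of Aldoc was 0.014 to 0.0269 without aggregate 9A1 replicate 1, Matrigel 14B3 replicate 2 or Matrigel 9A1 replicate 2, that of Tpi1 0.0196 to 0.0385 without aggregate 9A1 replicate 1 or Matrigel 9A1 replicate 2, and that of Ldha 0.024 to 0.0311 without Matrigel 14B3 replicate 2 or Matrigel 9A1 replicate 2. For Bnip3 it was 0.0173 to 0.0262 without Matrigel 14B3 replicate 2 or Matrigel 9A1 replicate 2, and for Ero1a 0.0107 to 0.0363 without Matrigel 14B3 replicate 2 or Matrigel 9A1 replicate 2. Pdk1 was at 0.0231 and Higd1a at 0.0431 without Matrigel 9A1 replicate 2, Hif1a at 0.0367 without aggregate 14B3 replicate 2, and Pkm at 0.0409 without aggregate 9A1 replicate 1. With the mean of its probe sets Hif1a was at 0.00476 and Higd1a at 0.00819. P4ha1, P4ha2 and Adm had the smallest differences among the genes called in both cultures, 0.10, 0.09 and -0.03.

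The lines were compared to see whether they started from the same level. Averaged over the 3 cultures, Aldoc and Vegfa were higher and Eno2 was lower in 14B3 than in 9A1, where limma called 2.57% of all genes higher and 3.45% lower. Aldoc averaged 10.66 ± 0.62 in 14B3 and 8.86 ± 1.09 in 9A1 (SD, n = 6 each), a difference of 1.80 ± 0.20 (SE) with limma's adjusted p of 0.000193. Vegfa averaged 10.59 ± 0.19 in 14B3 and 10.16 ± 0.29 in 9A1 (SD, n = 6 each), a difference of 0.42 ± 0.10 (SE) (limma, adjusted p = 0.0227, and 0.197 with the replicate block within each line). Its call was lost at 0.0519 to 0.0658 without aggregate 14B3 replicate 2, aggregate 9A1 replicate 1, Matrigel 14B3 replicate 2, Matrigel 9A1 replicate 1, basal 9A1 replicate 1 or basal 9A1 replicate 2, at 0.115 with the mean of its probe sets and at 0.0691 with the additive fit. Eno2 averaged 6.60 ± 0.22 in 14B3 and 7.31 ± 0.48 in 9A1 (SD, n = 6 each), a difference of -0.71 ± 0.15 (SE) (limma, adjusted p = 0.0143, and 0.128 with that block). Pfkl, at 0.30, had limma's adjusted p of 0.0789 and 0.025 without Matrigel 9A1 replicate 2.

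In basal culture 28 of the 30 genes had the higher mean in 14B3, with a median difference of 0.35, against 0.05 for all genes, of which 61.5% were higher in 14B3. Limma called 4 genes higher and 0 lower, where 0.984% of all genes were called higher and 0.92% lower. Aldoc differed by 2.57 ± 0.35 (SE), Ndrg1 by 1.17 ± 0.25 (SE), Vegfa by 0.82 ± 0.17 (SE) and Pfkl by 0.79 ± 0.15 (SE), with limma's adjusted p of 0.00285, 0.0371, 0.03 and 0.0239. For Aldoc the 9A1 arrays, at 7.37 and 7.81, lay below the background guide, so that its difference may be understated. Ero1a and Bnip3 differed by 1.49 ± 0.46 (SE) and 1.35 ± 0.40 (SE) without a call (limma, adjusted p = 0.175 and 0.155). In aggregates 24 of the 30 means were lower in 14B3, with a median of -0.10, against 0.03 for all genes, of which 43.6% were lower. Limma called Aldoc alone there, at 1.59 ± 0.35 (SE) (adjusted p = 0.0452), where 0.605% of all genes were called higher and 0.92% lower. In Matrigel 15 means were higher and 15 lower in 14B3, where 59.2% of all genes were higher and 40.8% lower.

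With its sign kept, the aggregate change was higher in 9A1 than in 14B3 for all 30 genes. In size it was larger in 14B3 for Pfkm (-0.46 in 14B3 and -0.22 in 9A1), Ddit4 (-1.34 and -0.47) and Hk2 (-0.25 and 0.17). The basal levels of the lines, given above, enter each of these changes. The difference in change, 14B3 minus 9A1, had a median of -0.58, against -0.01 for all genes, of which 51.5% were negative, and ran from -1.74 to -0.05. With limma 0 of these differences passed, where 0.468% of all genes were called, while 12 of the 30 had an unadjusted p below 0.05, against 6.63% of all genes. Ndrg1 rose by 1.84 in 14B3 and 3.22 in 9A1, a difference of -1.38 ± 0.35 (SE) with limma's adjusted p of 0.172, which was 0.0356 with the replicate block. Bnip3 rose by 1.29 in 14B3 and 3.03 in 9A1, a difference of -1.74 ± 0.56 (SE) (limma, adjusted p = 0.382). Ero1a was at 1.09 in 14B3 and 2.79 in 9A1, a difference of -1.70 ± 0.65 (SE) (limma, adjusted p = 0.544). Pdk1 was at -0.04 in 14B3 and 1.03 in 9A1, a difference of -1.07 ± 0.36 (SE) (limma, adjusted p = 0.434).

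Tested in each line alone, aggregates had 7 of the 30 genes higher in 14B3 and 22 in 9A1, and all 7 were among the 22; of all genes 15.7% and 17.4% were called higher in 14B3 and 9A1. The 7 were Ndrg1, Pfkp, Higd1a, Bnip3, Aldoc, Kdm3a and Ldha. Pfkm and Ddit4 were called lower in 14B3 and 0 genes in 9A1, where 17.5% and 19.5% of all genes were. In Matrigel 4 of the 30 genes were higher in 14B3 and 11 in 9A1, where 8.91% and 9.71% of all genes were. Pfkm, at -0.53, and Hif1a, at -0.65, were called lower in 14B3 Matrigel (limma, adjusted p = 0.0168 and 0.0453), and 0 genes in 9A1, where 7.6% and 8.07% of all genes were. With its sign kept, the Matrigel change was lower in 14B3 for 27 of the 30 genes, Pfkm and Hif1a among them (-0.19 and -0.01 in 9A1), with a median difference of -0.41. Over all genes the median difference was -0.01, and 51.9% of them were lower in 14B3. Limma called 0 of the differences of the 30 genes, where 0.686% of all genes were called, and 8 had an unadjusted p below 0.05, against 6.77% of all genes. The aggregate and Matrigel differences between the lines share the basal arrays and do not count as independent.

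**Figure D4:**
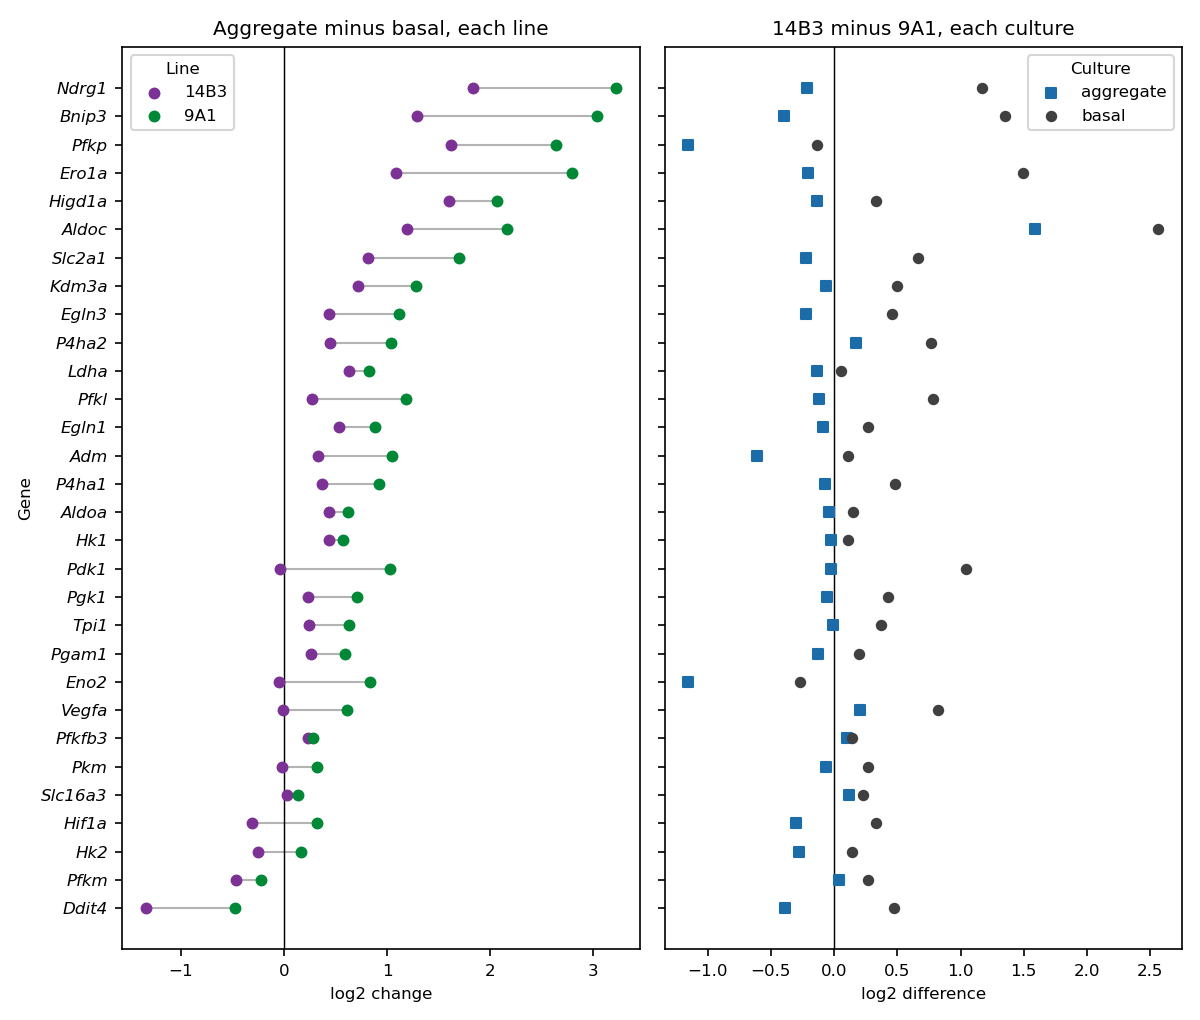
Left, the aggregate minus basal log2 change of each gene in 14B3 (purple) and 9A1 (green), joined by a line; right, the 14B3 minus 9A1 log2 difference in aggregates (blue squares) and in basal culture (grey points). Each point is a difference between means of 2 arrays; with its sign kept, the 14B3 change lies below the 9A1 change for all 30 genes, and most basal points lie above 0.

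Replicate arrays of a group differed along this set of genes in some groups and not in others. In 9A1 Matrigel all 30 genes were higher on replicate 2 than on replicate 1, with a median of 0.42, where 56.1% of all genes were higher. The counts were 28 of 30 in 14B3 Matrigel (median 0.33), where 55.1% of all genes were higher, and 27 in 9A1 aggregates (0.38), where 51.3% were. In 14B3 aggregates 7 were higher (-0.07), where 58.6% of all genes were. In basal culture 17 were higher in 14B3, where 54.7% of all genes were, and 20 in 9A1, where 52.7% were. Bnip3 read 11.07 and 12.28 on replicates 1 and 2 in 14B3 Matrigel, the first labelled as 5 and the second as 10 days, and 11.45 and 12.55 in 9A1 Matrigel, where both are labelled as 10 days. Ero1a read 11.53 and 12.55 in 14B3 Matrigel and 10.93 and 12.42 in 9A1 Matrigel. Other genes had unlike gaps, replicate 2 minus replicate 1 being 0.03 in 14B3 and 0.70 in 9A1 Matrigel for P4ha2, and 0.29 in 14B3 and 0.76 in 9A1 for Slc2a1. The 3′ minus 5′ signal of the Actb control on replicates 1 and 2 was 0.23 and 0.34 in 14B3 Matrigel, 0.23 and 0.39 in 9A1 Matrigel, 0.32 and 0.25 in 14B3 aggregates, 0.32 and 0.37 in 9A1 aggregates, 0.30 and 0.31 in 14B3 basal culture and 0.17 and 0.33 in 9A1 basal culture. Labelled time in Matrigel differed between the replicates in 14B3 only. The Actb signal was higher on replicate 2 in every group except 14B3 aggregates, where it was lower. The part of time and of this signal in the gaps was not tested. From replicate 1 arrays alone the median aggregate change of the 30 genes was 0.50, and from replicate 2 arrays 0.72. All 21 genes called higher in aggregates were higher within both replicate numbers, as were all 13 called higher in Matrigel, while 1 of the 2 called lower in aggregates was lower within both. The same arrays gave the calls, so this split is a description and no separate support.

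**Figure D5:**
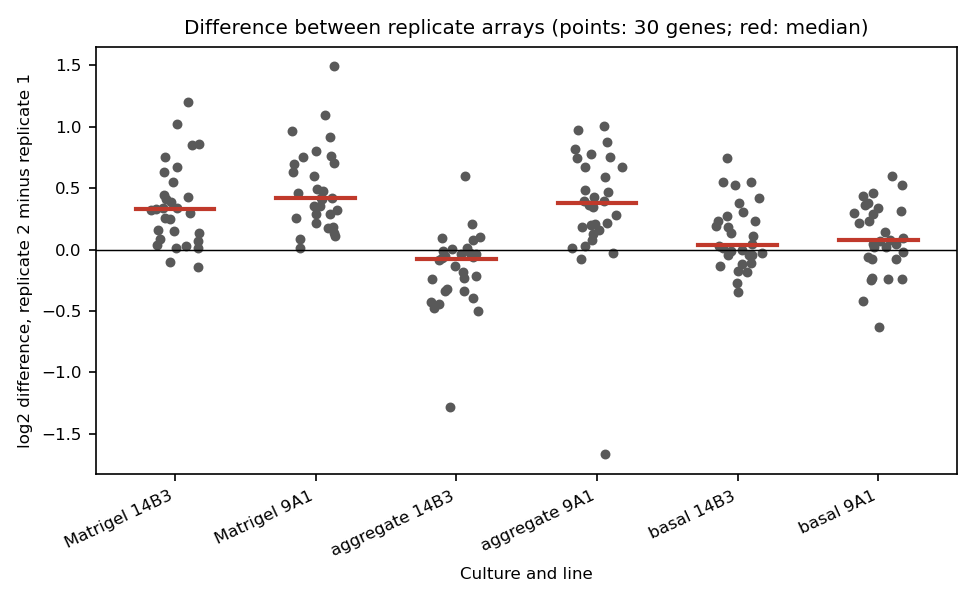
Difference between the replicate arrays of each group, replicate 2 minus replicate 1 on the log2 scale; each point is 1 of the 30 genes and the red line is their median. The points lie mostly above 0 in both Matrigel groups and in 9A1 aggregates, and around 0 or below in the other groups; the lowest points of both aggregate groups are Ddit4.

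Of the 30 genes 18 had more than 1 probe set, and when each probe set was tested by itself 10 of them gave the same aggregate call on all, and none gave opposite calls. The other 8 were Aldoc, Egln1, Hif1a, Pdk1, Pfkfb3, Pgk1, Tpi1 and Vegfa. For Hif1a, 1 of the other probe sets (1416035_at) was called higher, at 0.49 with limma's adjusted p of 0.0408 over all probe sets, against 0.01 for the brightest. A second probe set of Vegfa (1420909_at) was at 0.55 (limma, adjusted p = 0.0195), and a second probe set of Pfkfb3 (1416432_at) at 0.46 (limma, adjusted p = 0.0427). A second Aldoc probe set (1424714_at), with a mean log2 intensity of 5.48, was at 0.17 (limma, adjusted p = 0.258). The second Egln1 probe set (1451110_at, mean 9.62) was at 0.23 (limma, adjusted p = 0.329). Of Pgk1, 1417864_at was at 0.54 and 1439435_x_at at 0.65, both called higher (limma, adjusted p = 0.00164 and 0.00978). For its brightest probe set limma's adjusted p was 0.0501 here. The other probe sets of Pdk1 (0.39) and Tpi1 (0.39 and 0.22) had no call (limma, adjusted p = 0.336, 0.151 and 0.306).

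Of 98 other genes of these pathways, listed by role, 82 were measured, of which 32 were higher and 8 lower in aggregates, where 22.9% of all genes were called higher and 23.4% lower. In Matrigel against basal culture 23 were higher and 3 lower, where 14.1% and 14.3% of all genes were, and in Matrigel against aggregates 8 were higher and 16 lower, where 13.9% and 12.7% were. Liver forms of sugar enzymes and carriers had 5 of 7 higher in aggregates and 0 lower: the glucose carrier Slc2a2 at 3.13 ± 0.27 (SE), the pyruvate kinase Pklr at 2.64 ± 0.15 (SE) and the glucose phosphatase G6pc at 2.53 ± 0.33 (SE), with limma's adjusted p of 1.4e-06, 4.52e-08 and 4.09e-05. In Matrigel they were at 2.41, 1.10 and 1.47 (limma, adjusted p = 4.23e-05, 0.000182 and 0.00493). Slc2a2 and G6pc lay below the background guide on all basal arrays, so their changes may be understated and their order against Pklr is not known. Pklr was the 1 of the 82 whose aggregate change differed between the lines, by -1.64 ± 0.30 (SE) (limma, adjusted p = 0.0387). Genes of pyruvate use had 3 of 9 higher and 0 lower in aggregates: pyruvate carboxylase Pcx (3.01), the pyruvate dehydrogenase kinase Pdk2 (2.03) and the mitochondrial pyruvate carrier subunit Mpc1 (1.59). The basal arrays of Pcx and Pdk2 also lay below the guide.

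Among other genes of glycolysis, enzymes and carriers, 4 of 12 were higher and 1 lower in aggregates, where 22.9% and 23.4% of all genes were. The higher ones included the phosphoglucomutase Pgm1 (1.52), the monocarboxylate transporter Slc16a1 (0.75) and Pgm2 (0.63), while the muscle enolase Eno3 was lower (-0.92, limma, adjusted p = 0.000299). Partners and regulators of Hif1a had 4 of 11 higher and 0 lower, where 22.9% and 23.4% of all genes were. Epas1, the other oxygen-regulated factor, rose by 0.72 ± 0.21 (SE) in aggregates and 0.88 ± 0.21 (SE) in Matrigel, with limma's adjusted p of 0.0141 and 0.00817. The aggregate rise differed between replicates. In each line Epas1 read 8.75 on replicate 1 and 7.89 on replicate 2 in aggregates, against 7.49 to 7.68 in basal culture. The replicate 2 aggregates lay below the background guide. The partner subunits Arnt and Arnt2 rose by 0.36 ± 0.10 (SE) and 0.28 ± 0.09 (SE) in aggregates (limma, adjusted p = 0.0102 and 0.0195), at levels near or below the background guide, as was basal Epas1, and the lectin Os9 rose by 1.38 ± 0.09 (SE) (limma, adjusted p = 2.3e-07). Hif3a was at 0.38, Vhl at 0.20 and the third hydroxylase gene Egln2 at 0.19, without a call (limma, adjusted p = 0.0616, 0.144 and 0.127).

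Other genes known to respond to low oxygen had 16 of 43 higher and 7 lower in aggregates, where 22.9% of all genes were called higher and 23.4% lower. Among the higher were the selenium-binding protein Selenbp1 at 5.05 ± 0.36 (SE), Fam162a at 1.92 ± 0.12 (SE) and the creatine transporter Slc6a8 at 1.91 ± 0.11 (SE), with limma's adjusted p of 3.34e-07, 1.39e-07 and 5.44e-08. Basal Selenbp1 averaged below the background guide, so its change may be understated. Among the lower were the histone deacetylase complex subunit Sap30 at -1.42 ± 0.18 (SE), the surface protein Tpbg at -1.18 ± 0.18 (SE) and the Notch effector Rbpj at -1.04 ± 0.11 (SE), with limma's adjusted p of 3.61e-05, 0.00014 and 5.56e-06. All aggregate arrays of Tpbg lay below the guide, so its fall may be understated as well. In Matrigel against basal culture 10 of the 43 were higher and 2 lower, where 14.1% and 14.3% of all genes were, among them Selenbp1 (3.75), Slc6a8 (1.60) and the cyclin Ccng2 (1.39) higher, and Rbpj (-0.57) and the carbonic anhydrase Car12 (-0.48), mostly below the guide, lower.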

How the data were processed

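Labelled RNA of 12 samples was hybridised to Affymetrix mouse 430A arrays, each prepared from 5 ug of total RNA per the labels' protocols. The authors deposited 1 intensity per probe set (14.4 to 27318, linear), for which the submitters' processing notes name R 2.3.1 and RMA. These deposited intensities were turned into log2 values here. The platform annotation gave 1 symbol to 20380 of 22690 probe sets, of which 20351 matched RefSeq by gene ID. Probe sets with several symbols (691), with none (1555) or serving as controls (64), the sole ones for Gapdh, were set aside. A gene's level is that of its brightest probe set (12393 genes, dim ones included).

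A mean per group was fitted in R 4.3.3 by limma 3.58.1, using lmFit and eBayes. This left 6 residual degrees of freedom, and the residual SD had a median of 0.170. Two-sided p-values were adjusted over the 12393 genes (Benjamini-Hochberg, threshold 0.05). The script was tested on simulated data. All measured members are named; values per array are given for the largest called changes, for paralogues, for Hif1a and for members called against the majority, and of the other lists up to 3 called genes per direction. Members and lists were chosen with earlier results of these data known. A planned comparison of protein sequences was not run, since no protein table was used here.

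Differences between replicates 2 and 1 correlated across genes in all 15 pairs of groups (r from 0.10 to 0.64). The main fit, which gave the calls above, has no block for replicate number. An alternative fit took replicate numbers as pairs, with a block within each line. Where that block changes a call averaged over lines or cultures, or in a difference in response, its value is given. Other alternatives were each array left out, other scalings, other uses of probe sets, genes above the median level, array weights, a trended robust prior, an additive fit and a change of at least 1 log2 unit. Arrays were left out for contrasts averaged over lines or cultures and for the differences in response. A block shared by both lines was chosen after seeing the data, and only its counts of calls are given. Python 3.11.15 with matplotlib 3.10.9 drew the figures.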

Additional observations from a re-analysis of the deposited data

How the results depend on the processing

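No gene changed sign where the main fit or the alternative gave it a call. Genes without a call could change sign. The aggregate change of Hif1a, for example, ran from -0.12 to 0.13 with arrays left out. Of the single-gene values, 3500 kept their side of the threshold, 123 lost and 73 gained a call. The number of genes called higher in aggregates, 21, was 14 to 21 with each array left out in turn and 7 at a change of at least 1 log2 unit. It was 24 with either replicate block or with every probe set, 19 with the additive fit, 18 with quantile normalization and 21 with the other alternatives. The 2 lower genes became 1 with a trended robust prior, 1 when every probe set was tested, 1 to 2 with arrays left out and 0 at a change of at least 1. In Matrigel against basal culture the 13 higher genes became 8 to 15 with arrays left out and 5 at a change of at least 1, and the 1 lower gene became 2 with every probe set and 0 at that change. The 5 genes lower in Matrigel than in aggregates became 2 with the additive fit, 3 with array weights, 8 with median centring, 3 with quantile normalization, 0 at a change of at least 1, 0 to 12 with arrays left out, 10 with the replicate block within each line and 11 with a replicate block shared by both lines, the last chosen after seeing the data. For 14B3 against 9A1 the 2 higher genes became 1 with the additive fit, with probe sets averaged, with the replicate block within each line or a change of at least 1, 5 with the shared block, and 1 to 3 with arrays left out. The 1 lower gene became 0 among genes above the median level, with the block within each line or at a change of at least 1, and 2 with the shared block. The number of genes called for a smaller aggregate change in 14B3 was 1 with either replicate block, against 0 without. A group left with 1 array was taken to vary like the others. Shares of all genes called are given for the main fit only, here and above. A shift in the count of these genes under an alternative therefore cannot be set against a shift over all genes. The cause of these shifts was not tested, except that a change of at least 1 can only remove calls and that genes above the median level are fewer genes.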
